A study of Oryctolagus cuniculus with 9 samples.

Results

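RAB proteins are the small GTPases that give membrane compartments their identity and steer vesicle traffic. Each is anchored by prenyl groups, is switched on when an exchange factor loads GTP, recruits effectors such as tethers and motors, and is switched off by a GTPase activating protein, after which GDI lifts it from the membrane. In endocrine cells such as those of the parathyroid, RABs at the Golgi, the endosomes and the secretory granules carry hormone, receptors and lysosomal cargo. The roles named for single RABs below are those known from human, mouse and yeast work.

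The expression of these genes was examined in 9 mRNA libraries of primary rabbit parathyroid cells, 3 in each of 3 groups. The GA+H/R cells were pretreated with 1200 µM gallic acid, a plant phenolic acid, for 24 h and then kept for 6 h in hypoxia and 6 h in reoxygenation, an in vitro model of ischaemia and reperfusion. The H/R cells had the same 6 h and 6 h without gallic acid, and the control cells were untreated wild type cells taken at day 0. The labels give the injured groups the genotype entries "IRI with GA" and "IRI", and name no strain, age or separate animals or cultures. P-values therefore measure the spread between libraries, which may be technical, and a difference from the controls cannot be told apart from a difference in time.

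Members were all rows named RAB followed by a number and its paralog letter, with the row of the higher mean kept where a name occurred more than once. This gave 49 genes of 19511 loci, after the exchange factor RAB3IL1 was left out and 1 further locus of RAB2A was set aside. Of these, 33 reached 1 scaled FPKM in at least 3 libraries and were tested, and all 33 did so in all 9 libraries. The other 16 reached at most 1.62 scaled FPKM in any library and are described further on. RAB1B, RAB3A and RAB38 are among the RABs not analysed here.

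Deposited FPKM, in which fragments are set against transcript length and library total, summed to 498124 ± 26668 in GA+H/R, 744230 ± 12247 in H/R and 1674788 ± 24633 in control libraries (SD, n = 3 each), and depth is unknown. The median locus fell with the sums, by 0.50 on the log2 scale for GA+H/R against H/R, and by 1.25 in H/R against control. RAB values below are therefore scaled FPKM unless given as deposited, each library divided by its median ratio to the mean library. Changes are log2(scaled FPKM + 1) relative to the median locus, given with their SE where an error follows. Values called FPKM alone, among them those of the marker genes in this paragraph, are as deposited. GA+H/R minus H/R is called the gallic acid comparison below, and H/R minus control the injury comparison. The offset of 1 understates changes of low genes. A change was called at a Benjamini-Hochberg adjusted p under 0.05 in limma, adjusted over 10956 loci. Parathyroid identity had little support: PTH was at most 0.0439 FPKM in GA+H/R, 0.0377 in H/R and 0.142 in control libraries, CHGA was listed at 0 in all GA+H/R libraries, and CASR and GCM2 were not analysed here. Of the epithelial markers EPCAM, KRT8 and CDH1 were at or near 0, and TJP1, a junction gene and the only one tested, had 63.9 to 75.7 FPKM in GA+H/R, 133 to 138 in H/R and 548 to 584 in control libraries. Of the fibroblast genes COL1A2 had 4091 to 4215 FPKM in GA+H/R, 13220 to 13290 in H/R and 78990 to 130200 in control libraries. VIM had 7347 to 7501 FPKM in GA+H/R, 9585 to 9618 in H/R and 13380 to 14940 in control libraries. PDGFRA was low, with 0.126 to 1.74 FPKM over all 9 libraries. In bulk RNA, fewer cells of a type and less RNA per cell cannot be told apart.

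Gallic acid pretreatment came with higher RAB transcripts relative to the median locus, and with lower ones on the deposited scale. In GA+H/R against H/R, 11 of 33 tested RABs rose (33.3%), 0 fell and 22 were not called by limma. An unadjusted limma p under 0.05 was reached by 18 of the 33, and by 4912 of the 10956 loci tested. Across all loci tested 18.7% were called higher and 15.2% lower, so on this scale the share that rose lies above the background and the share that fell lies below it. The median RAB change was 0.20 against 0.00 for all loci, and reversed to -0.41 on the deposited scale, where the median of all loci was -0.50. The mean of 27 RABs was higher and that of 6 was lower, beside a median change of 0.00 for all loci. All 3 GA+H/R libraries lay above all 3 H/R libraries for 21 RABs (63.6%, against 27.4% of all loci), and all 3 lay below for 0 (against 24.5%). No RAB change reached 1 on the log2 scale, where 349 of 10956 loci tested were called at 1 or more. Leaving out H/R library 3 lowered the count to 6, where 14.7% of all loci were higher and 10.6% lower. Scaled to equal sums of FPKM it was 2, with 0 lower, where 12.4% of all loci were higher and 17.1% lower, so that the share that rose was no longer above the background.

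Between H/R and control the family moved both ways relative to the median locus. On the deposited scale nearly all of it was lower, as were most loci. In H/R against control, 11 of 33 RABs rose (33.3%) and 13 fell (39.4%), against 29.2% higher and 28.4% lower among all loci tested, with a RAB median of 0.02. These shares are close to the background for rises and above it for falls. The changes were wider than in the gallic acid comparison, as were those of all loci. Of the 33 RABs 5 were called past 1 on the log2 scale, and of 10956 loci tested 1625 were. The SD of the log2 changes was 0.81 for the RABs and 0.75 for all loci, against 0.22 and 0.48 in the gallic acid comparison. The libraries of both groups did not overlap for 13 higher and 13 lower RABs (39.4% each, against 34.1% and 33% of all loci). Scaled to equal sums the split was 8 higher and 16 lower, where 19.3% of all loci were higher and 41.1% lower. On the deposited scale it was 1 higher and 30 lower, where 4.18% of all loci were higher and 86% lower. The RAB median reversed to -1.33 on that scale, where the median of all loci was -1.25. The fallen count was 8 without H/R library 1 and also 8 without control library 2, where 25.1% and 24.7% of all loci were lower, so that the share that fell was then near the background.

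Against control, the GA+H/R cells had 17 RABs that rose (51.5%) and 9 that fell (27.3%), where 33.7% of all loci tested were higher and 35.5% lower. The RAB median was 0.22, against -0.05 for all loci. The groups did not overlap for 17 higher and 9 lower RABs, against 35% and 36.5% of all loci. With equal sums of FPKM the split was 9 higher and 14 lower with a median that reversed to -0.13, where 24% of all loci were higher and 49% lower, and on the deposited scale it was 1 higher and 30 lower with a median of -1.77, where 4.1% of all loci were higher and 90.1% lower. This comparison shares the control libraries with the injury comparison and the GA+H/R libraries with the gallic acid comparison, so its values are not a further test of them. Over all 3 comparisons 31 RABs were called at least once, and RAB6B and RAB35 were not called in any. The share of all loci called at least once was not counted, but 7584 of 10956 were called in GA+H/R against control alone. In the authors' deposited table, a test across the 3 groups marked 33 of the 49 RABs (67.3%) and 10917 of 19511 loci (56%).

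**Figure D1:**
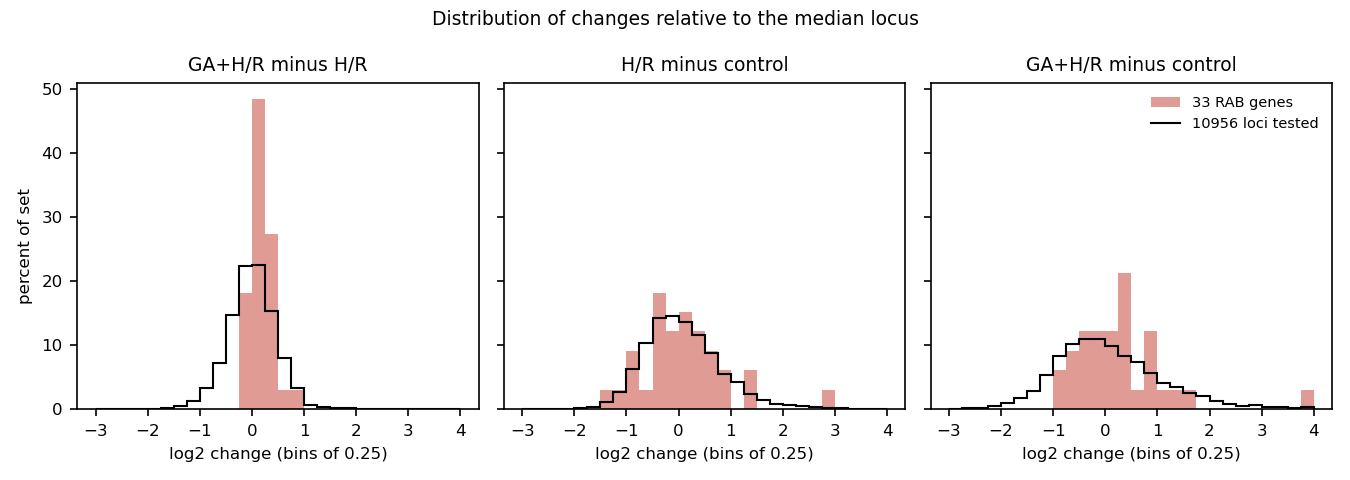
Histograms of the log2 change relative to the median locus in bins of 0.25, in percent of 33 RAB genes (filled) and of 10956 loci tested (line), for the 3 comparisons; loci beyond -3 or 4 are not drawn. In GA+H/R minus H/R the RAB genes have a median of 0.20 against 0.00 for all loci (-0.41 against -0.50 on the deposited scale), and in H/R minus control their median is 0.02.

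Among the RABs of exocytosis, RAB13 stood apart. RAB13, which delivers cargo to cell junctions and the plasma membrane, had 268, 273 and 252 scaled FPKM in GA+H/R, 150.4, 127 and 136 in H/R, and 17.7, 17.05 and 17.07 in control libraries. The 3 groups did not overlap. It rose by 0.94 ± 0.07 in the gallic acid comparison (SE; limma adjusted p 4.35e-05) and by 2.92 ± 0.07 in the injury comparison (limma adjusted p 7.42e-09), the highest change of any RAB in either comparison. As deposited it had 112 ± 4.89 FPKM in GA+H/R, 92.4 ± 7.79 in H/R and 31.9 ± 2.48 in control libraries (SD, n = 3 each), and it was the only RAB called higher on that scale, in each of the 3 comparisons. It was called higher under all 18 alternative settings in every comparison, with a lowest change of 0.27 in the gallic acid comparison.

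The other exocytic RABs changed less than RAB13 and not all in its direction. RAB26, which is linked to secretory granules, had 5.68, 8.42 and 6.31 scaled FPKM in GA+H/R, 5.87, 9.70 and 4.44 in H/R, and 1.81, 1.19 and 2.46 in control libraries. The GA+H/R and H/R groups overlapped, and both lay above the controls, with a rise of 1.41 ± 0.27 in the injury comparison (limma adjusted p 0.00175). RAB8B, which carries cargo from the Golgi to the surface, had 96.7, 88.5 and 86.6 scaled FPKM in GA+H/R, 79.3, 80.8 and 81.3 in H/R, and 141, 150.6 and 135 in control libraries. It fell by 0.82 ± 0.07 in the injury comparison (limma adjusted p 1.06e-05) and by 0.65 ± 0.07 in GA+H/R against control (limma adjusted p 2.36e-05). In the gallic acid comparison its change of 0.17 was not called, although the groups did not overlap. RAB10, which docks vesicles at the surface, had 14.9 to 17.2 scaled FPKM in GA+H/R, 13.7 to 14.2 in H/R and 13.02 to 14.2 in control libraries. Its call in GA+H/R against control (0.22, limma adjusted p 0.0495) was lost when any of 8 of the 9 libraries was left out.

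RAB27B, which docks secretory vesicles at the plasma membrane, was decided in part by 1 library. It had 7.80, 6.55 and 5.87 scaled FPKM in GA+H/R, 3.73, 4.33 and 3.73 in H/R, and 5.14, 15.3 and 15.0 in control libraries 1, 2 and 3. All H/R libraries lay below the controls, and control library 1 lay below the GA+H/R libraries while the other controls lay above them. The fall of 1.25 ± 0.33 in the injury comparison (limma adjusted p 0.0108) became a fall of 1.67 without control library 1 (limma adjusted p 9.84e-06). Without that library the spread of the fit was also smaller: the rise of 0.63 in the gallic acid comparison was then called (limma adjusted p 0.00273), against 0.65 and a limma adjusted p of 0.167 with it, and the fall of 1.05 against control was called too (limma adjusted p 1.03e-04), against -0.60 and 0.135. The macrophage gene MRC1 was likewise lower in that library, with 1.55 FPKM against 42.6 and 46.5 in the other controls. The fibroblast gene DCN was lower there too, with 390.4 FPKM against 1259 and 1251. Without that library 15 RABs rose in the gallic acid comparison, where 22.8% of all loci were higher, and 10 rose and 11 fell in the injury comparison, where 30.9% were higher and 28.5% lower.

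**Figure D2:**
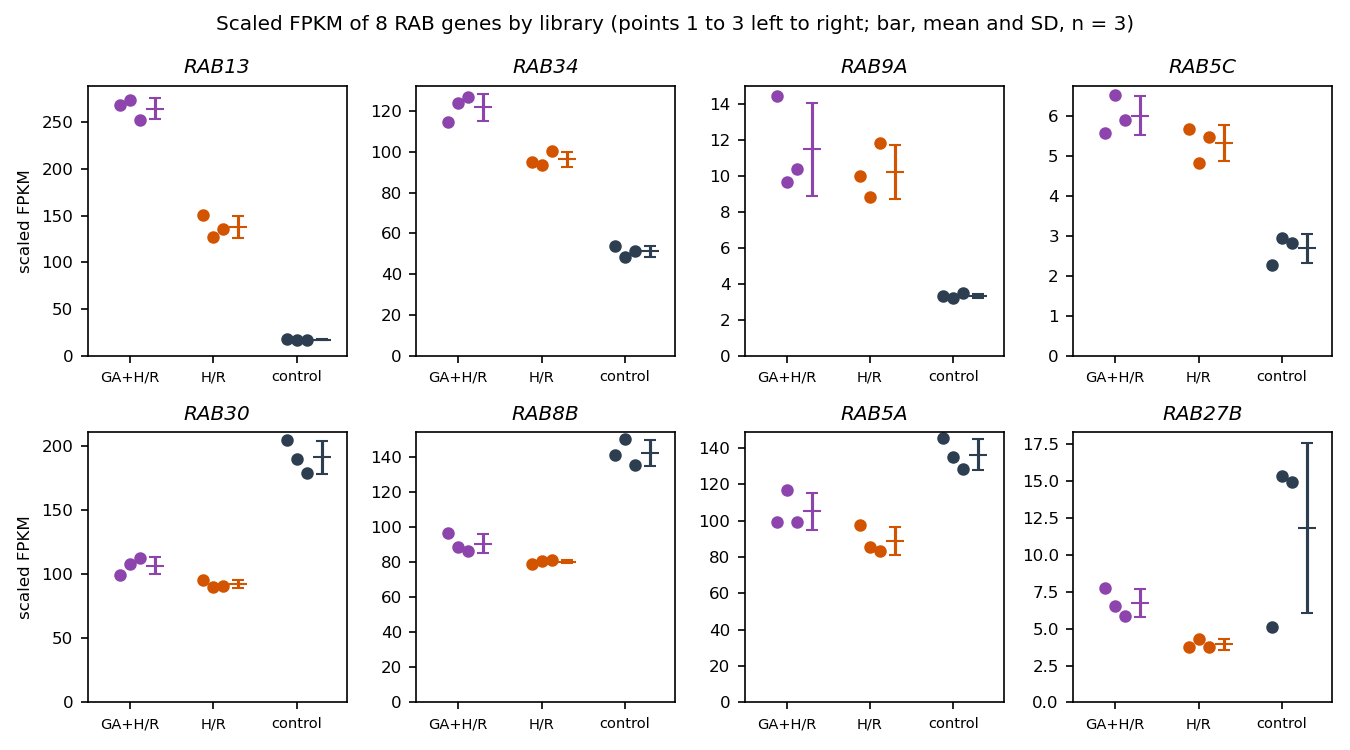
Scaled FPKM of 8 RAB genes in each library (points) with the group mean and SD (bar, n = 3), for GA+H/R, H/R and control cells, on linear axes that start at 0. RAB13, RAB34, RAB9A and RAB5C are higher in both injured groups than in the controls, whereas on the deposited scale RAB34 and RAB5C are lower there. RAB30, RAB8B and RAB5A are lower in both injured groups, and RAB27B has 1 control library at 5.14 and the others at 15.3 and 15.0.

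Counts by role rest on few genes and are given as descriptions, beside 18.7% of all loci higher and 15.2% lower in the gallic acid comparison and 29.2% and 28.4% in the injury comparison. Of the 9 tested RABs of the ER and Golgi, 5 rose in the gallic acid comparison, and 2 rose and 4 fell in the injury comparison. RAB34, a Golgi protein of lysosome positioning and cilium formation, had 114, 124 and 127 scaled FPKM in GA+H/R, 94.9, 93.3 and 100.4 in H/R, and 53.9, 48.7 and 51.4 in control libraries. It rose by 0.34 ± 0.07 in the gallic acid comparison (limma adjusted p 0.00588) and by 0.89 ± 0.07 in the injury comparison (limma adjusted p 7.54e-06), with no overlap between groups. RAB43, which acts in retrograde and receptor traffic at the Golgi, had 51.4, 63.3 and 68.5 scaled FPKM in GA+H/R, 47.4, 49.7 and 47.5 in H/R, and 34.3, 30.03 and 31.6 in control libraries. Its rise of 0.58 ± 0.11 in the injury comparison was called (limma adjusted p 0.00164), while that of 0.33 in the gallic acid comparison (limma adjusted p 0.0447) was lost on leaving out any of 7 libraries. RAB30, which supports Golgi structure, had 99.6, 108 and 113 scaled FPKM in GA+H/R, 96.0, 90.6 and 90.9 in H/R, and 205, 190.2 and 179.6 in control libraries. It fell by 1.04 ± 0.07 in the injury comparison (limma adjusted p 3.98e-06), and its change of 0.21 in the gallic acid comparison was not called (limma adjusted p 0.0551).

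RAB1A, RAB2A and RAB6A, which serve the route between the ER and the Golgi, fell by 0.20 to 0.30 in the injury comparison. RAB1A, which tethers ER-derived vesicles, had 601, 586 and 579.7 scaled FPKM in GA+H/R, 512, 518 and 524 in H/R, and 535, 626 and 625 in control libraries. Its fall of 0.20 in the injury comparison (limma adjusted p 0.0271) reversed to 0.04 under quantile normalization and was lost without any of 5 libraries. RAB2A, which acts between the ER and the Golgi and in lysosome fusion, had 125, 120.3 and 119.6 scaled FPKM in GA+H/R, 92.6, 100.6 and 91.5 in H/R, and 132, 122 and 99.4 in control libraries. RAB6A, which returns vesicles through the Golgi, had 225, 219.8 and 222 scaled FPKM in GA+H/R, 172, 191 and 187 in H/R, and 201, 225 and 205 in control libraries. For both, the H/R libraries lay below all GA+H/R libraries. In the gallic acid comparison RAB2A rose by 0.35 ± 0.10 (limma adjusted p 0.0234, lost without any of 4 libraries) and RAB6A by 0.28 ± 0.06 (limma adjusted p 0.00899). In the injury comparison RAB2A fell by 0.30 (limma adjusted p 0.028) and RAB6A by 0.20 (limma adjusted p 0.0233), and both falls were lost under quantile normalization. The H/R and control libraries overlapped for RAB2A. Its fall was also lost without any of 4 libraries, and that of RAB6A without any of 3.

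RAB18, a RAB of the ER and lipid droplets, rose by 0.35 ± 0.06 in the gallic acid comparison (limma adjusted p 0.00229). Its scaled FPKM were 230.3, 214 and 237 in GA+H/R, 168, 179.5 and 185 in H/R, and 190.1, 186 and 183 in control libraries. The H/R and control groups overlapped, and the change between them was -0.07. The paralogs RAB2B and RAB6B, at 1.68 to 6.26 scaled FPKM over all libraries, were not called in the gallic acid comparison or in the injury comparison. RAB2B fell by 0.40 in GA+H/R against control (limma adjusted p 0.029), a call lost without any of 3 libraries.

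The 6 RABs listed under early endosome and uptake include RAB24, which is known from autophagy rather than from early endosomes. None of the 6 was called in the gallic acid comparison. In the injury comparison all 6 were, 2 higher (RAB5C and RAB24) and 4 lower. RAB5A, which drives early endosome fusion, had 99.4, 117 and 99.1 scaled FPKM in GA+H/R, 97.5, 85.3 and 83.1 in H/R, and 145, 135 and 129 in control libraries. Its paralog RAB5C had 5.59, 6.55 and 5.91 scaled FPKM in GA+H/R, 5.69, 4.83 and 5.47 in H/R, and 2.29, 2.96 and 2.82 in control libraries. Relative to the median locus these paralogs moved in opposite directions: in the injury comparison RAB5A fell by 0.62 ± 0.09 (limma adjusted p 4.44e-04) and RAB5C rose by 0.78 ± 0.11 (limma adjusted p 3.58e-04). As deposited RAB5A fell by 2.06 (limma adjusted p 1.06e-07) and RAB5C also fell by 0.38 (limma adjusted p 0.00626). The ratio of RAB5A to RAB5C within a library does not depend on the scale, and it was 17.5 ± 0.605 in GA+H/R, 16.7 ± 1.30 in H/R and 51.6 ± 10.3 in control libraries (SD, n = 3 each). It was lower in all H/R than in all control libraries, a log2 difference of -1.62 with an exact two-sided permutation p of 0.1, the smallest that 3 against 3 allows, and 0.2 adjusted over the 12 tests of 4 paralog pairs.

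RAB24, known from autophagy, rose by 0.74 ± 0.13 in the injury comparison (limma adjusted p 0.00141). It had 24.0, 23.3 and 21.04 scaled FPKM in GA+H/R, 19.4, 16.8 and 25.01 in H/R, and 11.3, 11.4 and 12.1 in control libraries. RAB22A, which sorts cargo from early endosomes, fell by 0.49 ± 0.11 in the injury comparison (limma adjusted p 0.00464), with 50.8 to 60.9 scaled FPKM in GA+H/R, 48.7 to 57.6 in H/R and 68.2 to 84.9 in control libraries. RAB21, which carries integrins, had 5.59 to 6.94 scaled FPKM in GA+H/R, 5.80 to 6.92 in H/R and 7.60 to 8.60 in control libraries. RAB31, which acts between the Golgi and endosomes, had 19.5 to 20.2 scaled FPKM in GA+H/R, 18.4 to 19.2 in H/R and 20.1 to 27.2 in control libraries. Each fell by 0.31 in the injury comparison (limma adjusted p 0.0389 for RAB21 and 0.0337 for RAB31), and each call was lost without any of 5 libraries.

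Among the 5 late endosomal and lysosomal RABs, 2 rose in the gallic acid comparison, and 3 rose and 1 fell in the injury comparison. RAB9A, which retrieves receptors from late endosomes to the Golgi, had 14.4, 9.64 and 10.4 scaled FPKM in GA+H/R, 10.01, 8.81 and 11.8 in H/R, and 3.31, 3.23 and 3.48 in control libraries. It rose by 1.36 ± 0.16 in the injury comparison (limma adjusted p 9.28e-05), and its GA+H/R and H/R libraries overlapped. The table also holds LOC108176932, described as Rab-9A-like, which rose by 0.82 in the injury comparison and by 1.12 in the gallic acid comparison. The filter admitted it through the GA+H/R libraries, where it is high, and it had at most 0.0832 FPKM in the controls. How reads were divided between the copies is not given in the sources used here. RAB12, which directs receptors to lysosomes, had 122, 135 and 113 scaled FPKM in GA+H/R, 129.6, 139 and 142 in H/R, and 289, 209 and 231 in control libraries. It fell by 0.81 ± 0.12 in the injury comparison (limma adjusted p 3.59e-04), with no overlap.

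RAB32, a RAB of lysosome-related organelles and mitochondria, had 164, 159 and 166 scaled FPKM in GA+H/R, 141, 137 and 135 in H/R, and 95.0, 91.2 and 95.6 in control libraries. The groups did not overlap, and it rose by 0.24 ± 0.05 in the gallic acid comparison (limma adjusted p 0.00778) and by 0.55 ± 0.05 in the injury comparison (limma adjusted p 2.94e-05). RAB29, which recruits the kinase LRRK2, rose by 0.47 ± 0.13 in the injury comparison (limma adjusted p 0.0129), with 3.50 to 3.73 scaled FPKM in GA+H/R, 2.997 to 3.38 in H/R and 1.51 to 2.37 in control libraries. RAB7A, which fuses late endosomes with lysosomes, had 130.4, 116 and 123 scaled FPKM in GA+H/R, 104, 107 and 108 in H/R, and 99.3, 94.6 and 98.4 in control libraries. It rose by 0.21 ± 0.06 in the gallic acid comparison (limma adjusted p 0.0245), a call lost without any of 5 libraries. LOC100350986 and LOC103345804, both described as Rab-7a-like, may share reads with it.

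Of the 6 recycling RABs, 2 rose in the gallic acid comparison, and 2 rose and 1 fell in the injury comparison. RAB14, which moves cargo between the Golgi and endosomes, had 240.1, 232 and 261 scaled FPKM in GA+H/R, 202, 200.6 and 212 in H/R, and 313, 276 and 265 in control libraries. It was lowest in the H/R libraries, where it fell by 0.47 ± 0.07 against control (limma adjusted p 6.57e-04), and it rose by 0.25 in the gallic acid comparison (limma adjusted p 0.0294), a call lost without any of 5 libraries. RAB11A, the main RAB of the recycling endosome, had 8.44, 8.18 and 7.53 scaled FPKM in GA+H/R, 6.59, 5.78 and 6.34 in H/R, and 5.97, 5.85 and 5.25 in control libraries. It rose by 0.32 ± 0.10 in the gallic acid comparison (limma adjusted p 0.0295), also lost without any of 5 libraries. Its paralog RAB11B had 2.67, 1.97 and 2.33 scaled FPKM in GA+H/R, 2.38, 2.34 and 2.55 in H/R, and 1.32, 1.45 and 1.52 in control libraries. RAB11B rose in the injury comparison, by 0.49 ± 0.11 (limma adjusted p 0.00423). The RAB11A to RAB11B ratio was 3.51 ± 0.551 in GA+H/R, 2.58 ± 0.168 in H/R and 4.002 ± 0.525 in control libraries (SD, n = 3 each).

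RAB4B, a RAB of fast recycling, had 4.83 to 5.29 scaled FPKM in GA+H/R, 4.05 to 5.49 in H/R and 3.42 to 3.61 in control libraries. It rose by 0.30 in the injury comparison (limma adjusted p 0.0474), a call lost on leaving out any of 8 libraries. RAB15, a RAB of the pericentriolar recycling endosome, had 14.9 to 18.4 scaled FPKM in GA+H/R, 11.6 to 14.8 in H/R and 11.5 to 13.2 in control libraries, and rose in GA+H/R against control (0.43, limma adjusted p 0.00944). RAB35, which returns receptors to the surface, had 41.6, 24.7 and 29.6 scaled FPKM in GA+H/R, 39.6, 35.3 and 35.5 in H/R, and 29.1, 31.9 and 31.0 in control libraries. GA+H/R library 1 lay above the other libraries of its group, and the change against H/R of -0.23 was not called with it and was a fall of 0.43 without it (limma adjusted p 0.02). The remaining members belong to neither route. RAB23, a negative regulator of hedgehog signalling, fell by 0.80 ± 0.09 in the injury comparison (limma adjusted p 8.48e-05). It had 16.6 to 18.3 scaled FPKM in GA+H/R, 13.9 to 15.9 in H/R and 25.3 to 29.2 in control libraries. RAB28, a RAB of cilia, rose by 0.42 ± 0.10 in the gallic acid comparison (limma adjusted p 0.0103), with 31.4 to 34.3 scaled FPKM in GA+H/R, 21.4 to 25.8 in H/R and 21.6 to 24.7 in control libraries.

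**Figure D3:**
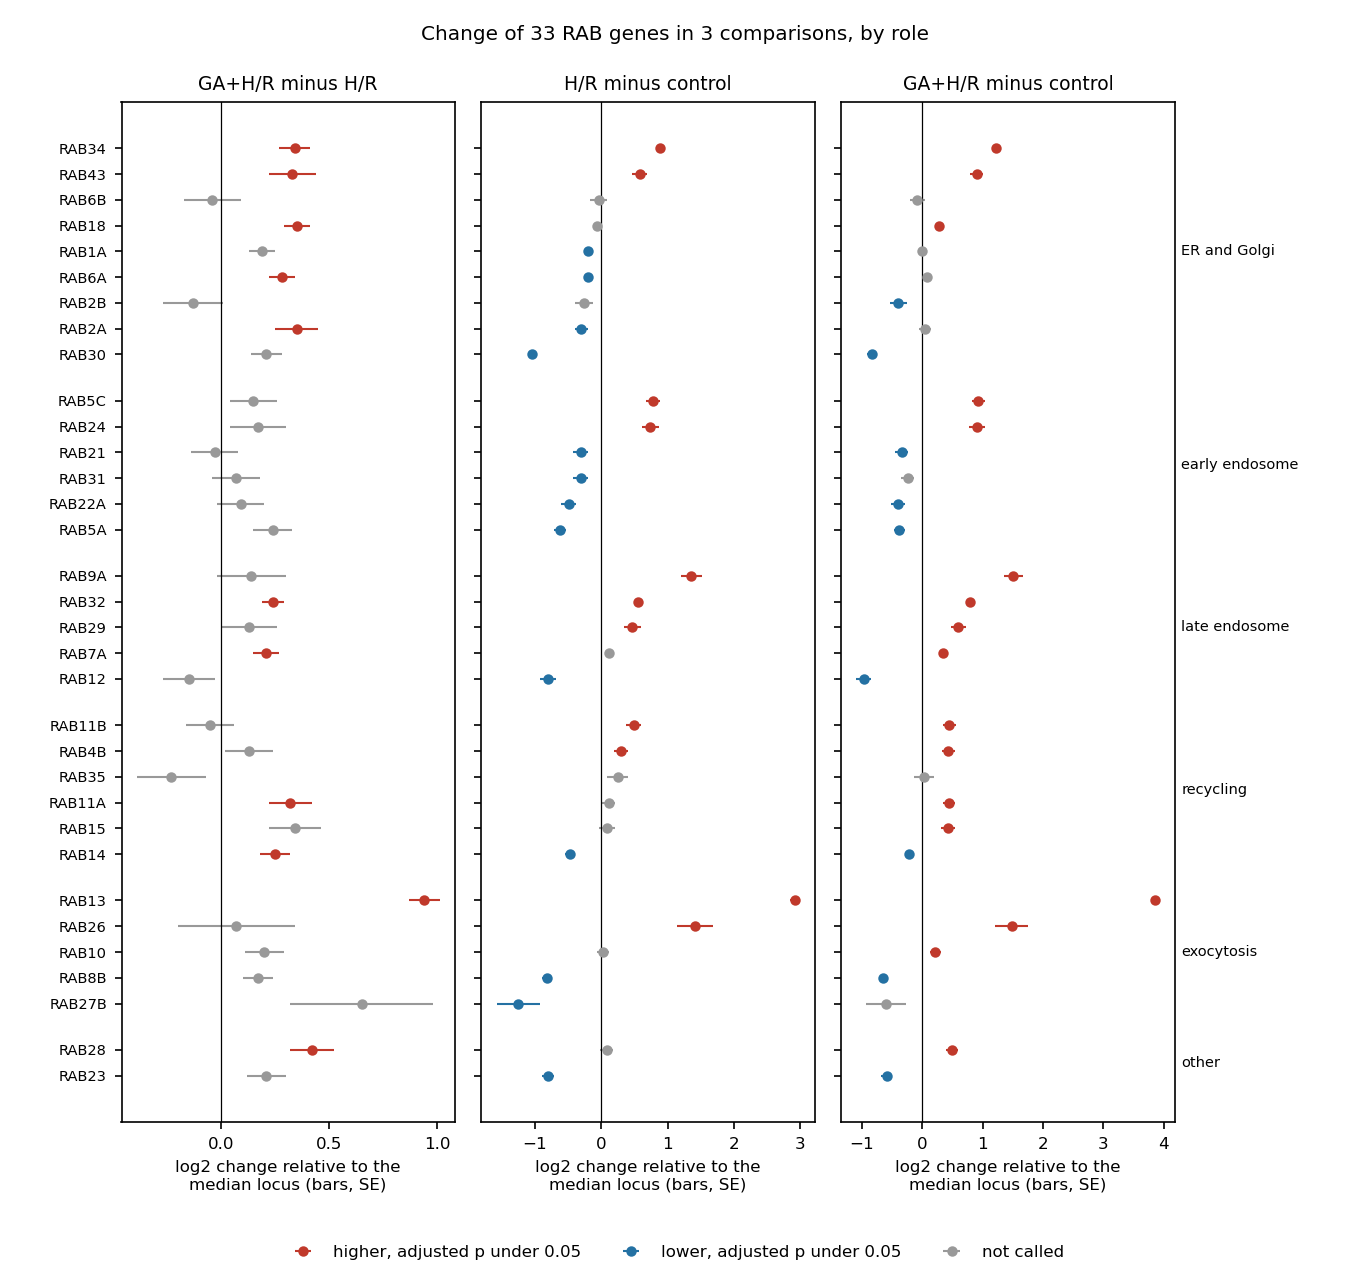
Log2 change relative to the median locus (points) with its SE (bars) for the 33 tested RAB genes, grouped by role, in 3 comparisons whose axes differ in range. Red marks genes called higher and blue genes called lower at a limma adjusted p under 0.05. RAB13 is the highest in each panel, at 0.94, 2.92 and 3.86. In GA+H/R minus H/R no gene is called lower, whereas 26 are on the deposited scale, where 64.3% of all loci are.

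Set side by side, RAB13, RAB32, RAB34 and RAB43 rose both in the injury comparison and in the gallic acid comparison. RAB14, RAB2A and RAB6A fell in the injury comparison and rose in the gallic acid comparison. The injury falls of RAB2A and RAB6A were lost under quantile normalization, and the further locus of RAB2A was not called in the injury comparison. RAB11A, RAB18, RAB28 and RAB7A rose in the gallic acid comparison and were not called in the injury comparison. The comparisons share the H/R libraries, so a high or low H/R value moves both. No RAB rose in the injury comparison and fell in the gallic acid comparison, or fell in both. Between libraries of a group the median coefficient of variation of the RABs was 6.41% in GA+H/R, 6.61% in H/R and 6.74% in control libraries. For all loci tested it was 11.2%, 8.32% and 11.5%. All 33 RABs reached 1 scaled FPKM in all 9 libraries, whereas a locus needed only 3, and loci of like expression were not compared.

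The deposited FPKM gave nearly all RABs lower levels after injury. On that scale 1 RAB was called higher and 26 lower in the gallic acid comparison, with 1.69% of all loci higher and 64.3% lower, and in the injury comparison 1 was higher and 30 lower, with 4.18% and 86% of all loci. RAB34, for example, had 51.5 ± 2.88 FPKM in GA+H/R, 64.6 ± 2.55 in H/R and 95.0 ± 9.59 in control libraries (SD, n = 3 each), so that it fell as deposited and rose relative to the median locus. RAB9A had 4.86 ± 1.07 FPKM in GA+H/R, 6.86 ± 1.02 in H/R and 6.17 ± 0.327 in control libraries (SD, n = 3 each), and was not called in the injury comparison as deposited. Whether the sums of FPKM differ with the RNA content of the cells or with the processing was not tested. In the plot of the deposited against the scaled changes, the RABs lie along a rising diagonal in each comparison. The division of each library by 1 factor sets this diagonal, so it is not a result about the RABs.

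**Figure D4:**
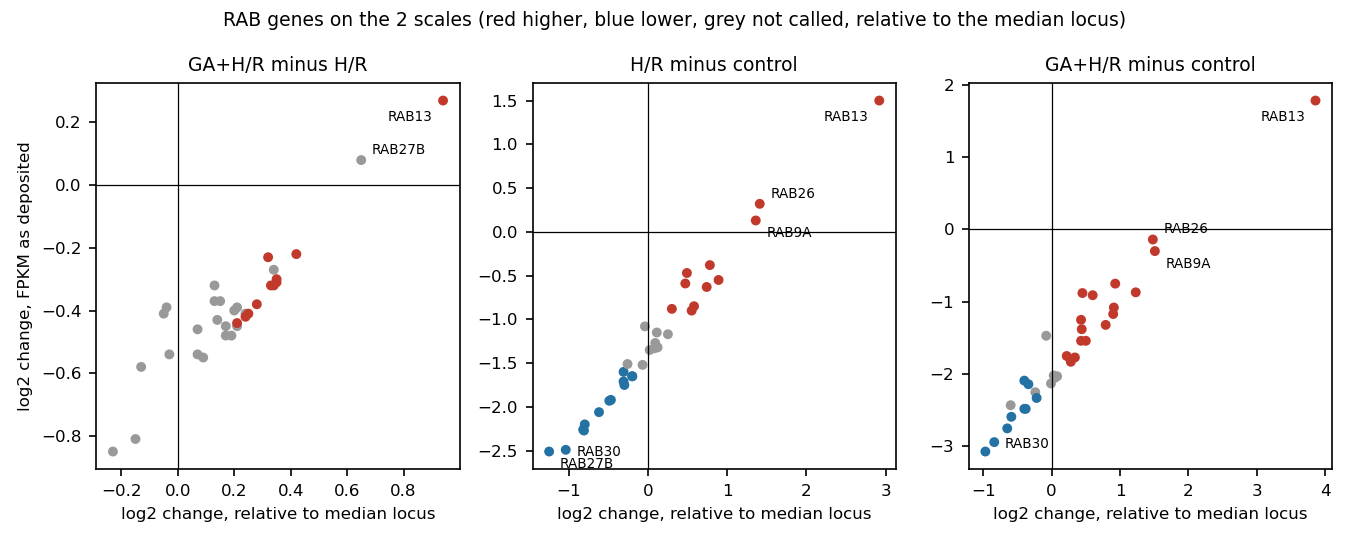
Log2 change of the 33 tested RAB genes on deposited FPKM (y axis) against the change relative to the median locus (x axis) in 3 comparisons; each point is a gene, red called higher, blue called lower and grey not called relative to the median locus. Nearly all points lie below 0 on the y axis, on either side of 0 on the x axis, and RAB13 is above 0 on both axes in each panel.

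The 16 RABs outside the test had at most 1.62 scaled FPKM in any library. RAB8A, the paralog of RAB8B, had 0.627, 0.740 and 1.003 scaled FPKM in GA+H/R, 0.510, 0.726 and 0.806 in H/R, and 0.373, 0.387 and 0.358 in control libraries. RAB27A, the paralog of RAB27B that acts in lysosome-related organelles, had 0.560, 0.934 and 0.489 in GA+H/R, 0.322, 0.138 and 0.322 in H/R, and 0.445, 0.238 and 0.0511 in control libraries. RAB3C, of regulated secretion, was listed at 0 in all GA+H/R and control libraries and had 0.158 to 0.197 in H/R, and its paralog RAB3B had 0.019 to 0.127 over all libraries. RAB7B reached 1.62 and RAB19 1.58, each in H/R library 1. RAB9B, RAB17, RAB20, RAB25, RAB33A, RAB36, RAB37, RAB39B, RAB42 and RAB44 stayed below 1 throughout, among them the epithelial RAB17 and RAB25. The main fit tested no difference at these levels, and the counts of a fit without the filter are given further on.

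The machinery that loads and recycles RABs was read from lists of symbols. Of 6 tested genes of prenylation and membrane extraction, 3 rose and 0 fell in the gallic acid comparison, and 3 rose and 2 fell in the injury comparison. The list is too short to read against the shares of all loci, 18.7% higher and 15.2% lower in the gallic acid comparison and 29.2% and 28.4% in the injury comparison. RABAC1, which helps release RABs from GDI, had 719.6 ± 13.1 scaled FPKM in GA+H/R, 412 ± 14.3 in H/R and 126 ± 10.6 in control libraries (SD, n = 3 each). It rose by 0.80 ± 0.07 in the gallic acid comparison (limma adjusted p 5.84e-05) and by 1.71 ± 0.07 in the injury comparison (limma adjusted p 1.07e-07), and was higher on the deposited scale too, by 0.14 and 0.26. CHM, the escort protein that presents new RABs for prenylation, fell by 1.17 in the injury comparison (limma adjusted p 2.67e-05) and rose by 0.41 in the gallic acid comparison (limma adjusted p 0.0198). GDI2 rose by 0.37 in the gallic acid comparison (limma adjusted p 8.58e-04), and RABGGTA, a subunit of the prenylating enzyme, rose by 0.91 in the injury comparison (limma adjusted p 0.00389). On the deposited scale these rises turned to -0.20 for CHM, -0.30 for GDI2 and -0.41 for RABGGTA.

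The regulators and effectors moved both ways, at rising shares below those of all loci (18.7% in the gallic acid and 29.2% in the injury comparison), beside 15.2% and 28.4% of all loci that fell. Of 34 tested exchange factors 3 rose and 6 fell in the gallic acid comparison, and 8 rose and 8 fell in the injury comparison, where DENND4C, an activator of RAB10, fell by 1.01 and RAB3IL1 rose by 0.90 (-0.44 as deposited). Of 26 GTPase activating proteins 2 rose and 4 fell in the gallic acid comparison, and 5 rose and 7 fell in the injury comparison, where TBC1D8B fell by 1.06 and TBC1D7 rose by 0.70 (-0.72 as deposited). Of 35 effectors 4 rose and 2 fell in the gallic acid comparison, and 6 rose and 10 fell in the injury comparison. In the gallic acid comparison SYTL4, a RAB27 effector on secretory granules, fell by 0.98 ± 0.08 (limma adjusted p 4.94e-05), and MYO5A, the myosin that carries RAB-bearing vesicles, rose by 0.82 ± 0.08 (limma adjusted p 9.33e-05). SYTL2, another RAB27 effector, fell by 0.89 in the injury comparison (limma adjusted p 0.00154), and RILPL1, an effector of RABs phosphorylated by LRRK2, rose by 0.87 (limma adjusted p 3.15e-05; -0.56 as deposited). LRRK2, the kinase of RAB8 and RAB10, fell by 0.69 in the gallic acid comparison (limma adjusted p 9.54e-04) and by 0.55 in the injury comparison (limma adjusted p 0.0013).

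Other gene groups changed in the same comparisons, some upwards and some downwards. Among all loci tested 18.7% were higher and 15.2% lower in the gallic acid comparison, and 29.2% and 28.4% in the injury comparison. All 6 tested macrophage genes rose in the gallic acid comparison. Of these, FCER1G and CD14 reached 1 scaled FPKM only in GA+H/R libraries, so the filter admitted them through the group where they are high. The 9 listed in the table summed to 343 to 359.5 scaled FPKM in GA+H/R and 29.1 to 34.1 in H/R. In control libraries the sum was 2.41 to 43.0, and C1QA, C1QB and CD68 were not among the names. Of 7 tested fibroblast genes 1 rose and 4 fell in the gallic acid comparison, and 1 rose and 5 fell in the injury comparison. Of 19 short housekeeping transcripts 10 rose and 0 fell in the gallic acid comparison (median 0.36), and 16 rose and 0 fell in the injury comparison (median 1.08). Of 21 long housekeeping transcripts 0 rose and 12 fell in the gallic acid comparison (median -0.30), and 0 rose and 15 fell in the injury comparison (median -0.51). The lengths of the RAB transcripts were not used here, and the part of cell makeup or transcript length in the RAB changes was not tested.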

How the data were processed

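RNA of 9 libraries was deposited as 1 table of FPKM per locus, per the file headers, together with a p-value, a q-value and a mark of significance that the authors deposited for a test across the 3 groups; only the mark was counted. The authors' aligner, quantification tool and scaling between libraries were not stated in the sources used here, and the submitters' processing notes name the mouse builds GRCm38 and mm10, although the transcripts are rabbit, so no coordinates or sequences are given. Of 49 members 43 carried the identifier of an assembled locus, and rows with several joined names were not members. No value column was left unmapped.

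From these values, FPKM of each library was divided by its median ratio to the mean library taken on those loci that had 1 FPKM or more in all 9. The fit used log2(scaled FPKM + 1) of loci that reached 1 scaled FPKM in 3 or more libraries. It was made with limma 3.58.1 (R 4.3.3), with 1 mean per group, all 9 libraries and the trend and robust settings of eBayes. Two-sided p-values were corrected by the Benjamini-Hochberg method across every locus in the fit, and the call threshold was 0.05. The steps were tested on simulated data. The members, roles and lists were chosen with earlier results of these data known, and the lists of short and long housekeeping transcripts were added after the values were seen. Named were up to 8 RABs that rose and 8 that fell most in each comparison at a mean of 1 FPKM or more, a fixed set of well known members, and up to 4 called genes of each machinery list; the remaining tested RABs were added to account for all members. Paralog ratios took every pair of tested members that share a number. Alternatives were other scalings, offsets, filters and fits and leaving out each library. The table holds no counts, so depth is unknown and counting error cannot be given.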

Additional observations from a re-analysis of the deposited data

How the results depend on the processing

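The scale between libraries mattered most. As deposited, 1 RAB was higher and 26 lower in GA+H/R against H/R (median -0.41), 1 and 30 in H/R against control (median -1.33), and 1 and 30 in GA+H/R against control (median -1.77). The medians of all loci on that scale were -0.50, -1.25 and -1.77. With equal sums of FPKM, 2 were higher in GA+H/R against H/R, the median was -0.24 in H/R against control, and 9 were higher and 14 lower in GA+H/R against control (median -0.13). Without the filter, the median in GA+H/R against control was 0.07, while 2 were lower in GA+H/R against H/R, where 9.04% of all loci were lower. These 2 were among the 16 RABs of low expression outside the main fit. Leaving out each library in turn gave 6 to 15 higher and 0 to 1 lower in GA+H/R against H/R (median 0.19 to 0.22), 10 to 11 higher and 8 to 13 lower in H/R against control (median -0.01 to 0.05), and 16 to 17 higher and 6 to 10 lower in GA+H/R against control (median 0.18 to 0.28). Of all loci 14.4% to 22.8% were then higher and 10.2% to 20.2% lower in GA+H/R against H/R. The shares were 25.8% to 30.9% and 24.7% to 29% in H/R against control, and 31.5% to 34.7% and 32.3% to 35% in GA+H/R against control.

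Same-numbered libraries did not deviate together (r between -0.018 and 0.026), so no pairing by replicate number was seen. Whether same-numbered libraries share a culture or preparation is not given by the labels, and these values cannot tell. With the number as a block, 9 RABs were higher and 0 lower in GA+H/R against H/R. In H/R against control 10 were higher and 13 lower, and in GA+H/R against control 16 and 9. Of all loci 17% were then higher and 13.9% lower in GA+H/R against H/R. The shares were 28.4% and 27.7% in H/R against control, and 33.1% and 34.8% in GA+H/R against control. The block left 3385, 6142 and 7441 loci called in these comparisons, against 3712, 6315 and 7584.

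Of 99 changes, 33 RABs in 3 comparisons, tried under 18 alternatives, 1505 values kept their direction and their side of the threshold, 43 became called, 128 lost the call and 97 reversed. Of the reversed values 58 were on the deposited scale, 14 with equal sums, 8 under quantile normalization and 17 with a library left out; 35 were called in neither fit. With equal sums, those reversed were RAB26 and RAB31 (-0.01) in GA+H/R against H/R; RAB35 (-0.03), RAB11A (-0.14), RAB7A (-0.17), RAB15 (-0.18), RAB28 (-0.20) and RAB10 (-0.25) in H/R against control; and RAB7A (-0.04), RAB18 (-0.09), RAB10 (-0.13), RAB6A (-0.29), RAB2A (-0.32) and RAB35 (-0.34) in GA+H/R against control. Under quantile normalization they were RAB28 (-0.01), RAB11A and RAB15 (-0.05), RAB10 (-0.13), RAB1A (0.04) and RAB18 (0.09) in H/R against control, with RAB35 (-0.02) and RAB1A (0.11) in GA+H/R against control. With a library left out, reversed values lay in these ranges: in GA+H/R against H/R RAB11B -0.12 to 0.03, RAB21 -0.09 to 0.05, RAB26 -0.15 to 0.34, RAB2B -0.22 to 0, RAB6B -0.11 to 0.08 and RAB9A -0.02 to 0.26; in H/R against control RAB10 -0.01 to 0.05 and RAB6B -0.11 to 0.02; and in GA+H/R against control RAB1A -0.08 to 0.03, RAB2A -0.06 to 0.15, RAB35 -0.18 to 0.19 and RAB6B -0.15 to 0.04. None of these 12 changes was called with all libraries. As deposited, those reversed in GA+H/R against H/R were RAB28 (-0.22), RAB11A (-0.23), RAB15 (-0.27), RAB2A (-0.30), RAB18 (-0.31), RAB29, RAB34 and RAB43 (-0.32), RAB4B and RAB5C (-0.37), RAB6A (-0.38), RAB23 (-0.39), RAB10 (-0.40), RAB14 and RAB5A (-0.41), RAB32 (-0.42), RAB9A (-0.43), RAB7A (-0.44), RAB24 and RAB30 (-0.45), RAB26 (-0.46), RAB1A and RAB8B (-0.48), RAB31 (-0.54) and RAB22A (-0.55). In H/R against control they were RAB5C (-0.38), RAB11B (-0.47), RAB34 (-0.55), RAB29 (-0.59), RAB24 (-0.63), RAB43 (-0.85), RAB4B (-0.88), RAB32 (-0.90), RAB11A (-1.15), RAB35 (-1.17), RAB15 (-1.27), RAB7A (-1.32), RAB28 (-1.33) and RAB10 (-1.35). In GA+H/R against control they were RAB26 (-0.14), RAB9A (-0.30), RAB5C (-0.75), RAB34 (-0.87), RAB11B (-0.88), RAB29 (-0.91), RAB24 (-1.08), RAB43 (-1.17), RAB4B (-1.25), RAB32 (-1.32), RAB11A (-1.38), RAB15 and RAB28 (-1.54), RAB10 (-1.75), RAB7A (-1.77), RAB18 (-1.83), RAB35 (-2.02), RAB6A (-2.03) and RAB2A (-2.05). The deposited reversals follow from the division of each library by its median ratio, and the cause of the other changes was not tested.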

Other observations

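Loci with a RAB name that were not members are given as deposited. The second RAB2A locus had 26.5, 21.9 and 23.4 FPKM in GA+H/R, 28.6, 28.5 and 32.6 in H/R, and 102, 91.7 and 88.7 in control libraries, and rose by 0.34 relative to the median locus in GA+H/R against H/R (limma adjusted p 0.0191). Its change of -0.19 in H/R against control was not called (limma adjusted p 0.0969). RAB3D, a RAB of secretory granules, stood only in a locus joined with TMEM205. That locus had 21.3, 20.8 and 17.4 FPKM in GA+H/R, 26.4, 27.5 and 31.6 in H/R, and 51.2, 42.2 and 41.8 in control libraries, and rose by 0.78 relative to the median locus in H/R against control (limma adjusted p 2.58e-04). The locus joining RAB40B and WDR45B rose by 0.48 in GA+H/R against H/R on the same scale (limma adjusted p 0.011). The locus joining RAB5B with IKZF4 and SUOX and the locus joining RAB4A with SPHAR were not called in any comparison. Which gene of a joined locus carries a change was not tested. LOC108176932, described as Rab-9A-like, had 1.03, 1.59 and 1.12 FPKM in GA+H/R, 0.363, 0.551 and 0.721 in H/R, and 0, 0 and 0.0832 in control libraries, and all injured libraries lay above all controls also as deposited. The controls were at or near 0, and the filter admitted this locus through the GA+H/R libraries, where it is high.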
